A study of Mus musculus with 9 samples.

Results

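Imprinted genes are transcribed mainly from the copy inherited from 1 parent, and many of them set the size of the fetus and of its organs. Among them, 10 were followed: H19, Igf2, Igf2r, Dlk1, Meg3, Rian, Peg3, Plagl1, Grb10 and Mest. They were named as a list of mouse symbols, drawn up with earlier results of these same libraries known, and were found through their Ensembl identifiers. All 10 of the 10 symbols matched, out of 55487 gene rows, and all 10 passed the filter on low counts that left 15633 genes. Their differences between groups are therefore given as a description, as levels and log2 differences with standard errors (SE). Their p-values are not printed, and counts of members past the threshold stand only beside the share of all genes that passed. The material was mouse cardiomyocytes, the contracting cells of heart muscle, sequenced as RNA in 9 libraries titled as biological replicates. There were 3 libraries from cells labelled as the blank control (NC in the protocol), 3 from the negative control that received the AAV9 vector alone (AAV9-VC), and 3 from cells given Firre, a nuclear long noncoding RNA, through the same type of adeno-associated virus (AAV9-Firre). The sources used here do not name a strain, age, genotype, viral dose or time after infection, or say whether the replicates came from separate animals, so the p-values measure the spread between these libraries.

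The libraries held between 15591542 and 22697016 counts assigned to genes. Firre itself read 30.2 to 37.1 CPM (the count scaled to library size) in the 6 control libraries and 62.5 to 69.6 CPM in the 3 Firre libraries, a log2 difference of 0.97 (SE 0.07) from the negative control with an adjusted p of 4.74e-13 by edgeR. A large share of the transcriptome moved with it: 56.0% of the tested genes passed an adjusted p of 0.05 against the negative control, 27.5% higher and 28.4% lower, and 56.3% passed against the blank control, so any count below has to be read against those shares. The marker lists of the cells that share the heart with cardiomyocytes also moved. Summed cardiomyocyte markers stood at 35800 to 38787 CPM in the 3 negative control libraries and at 54366 to 57712 CPM in the Firre libraries, with 12 of 12 higher. Fibroblast markers went from 9957 to 10145 CPM down to 4598 to 5142 CPM (12 of 12 lower), and endothelial markers from 1496 to 1510 CPM down to 644 to 670.0 CPM. All 12 endothelial markers had log2 differences of -0.58 or lower, and 11 of 12 passed an adjusted p of 0.05. Smooth muscle and pericyte markers went from 2949 to 3334 CPM down to 1527 to 1672 CPM (9 of 10 lower, Abcc9 higher). Epicardial markers went from 406 to 415 CPM down to 75.2 to 85.9 CPM (10 of 10 lower). Macrophage markers went from 72.0 to 77.6 CPM down to 11.9 to 13.2 CPM, with 11 of 11 tested lower and C1qa at 0 in all 3 Firre libraries. The median log2 difference of those tested was -5.02. Markers near 0 with Firre passed the low-count filter through the controls and could only come out lower, so nothing is read from that count. In bulk RNA of this kind, fewer cells of a type and less RNA per cell cannot be told apart, and the part of these cell types in the values of the imprinted genes and of the lists below was not tested.

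The members sit at 7 places in the genome, and their roles are linked. Igf2 encodes a fetal insulin-like growth factor, Igf2r a receptor that binds it and takes it to the lysosome, and H19 is a noncoding RNA whose transcription alternates with that of Igf2 through a shared, differentially methylated control region bound by CTCF. Dlk1, Meg3 and Rian form a second cluster of the same design, with a growth-promoting transmembrane protein on the paternal copy and long noncoding RNAs on the maternal copy. Peg3 and Plagl1 encode zinc finger proteins, Grb10 an adaptor that dampens insulin and IGF receptor signals, and Mest a hydrolase-like protein of mesoderm. Many of these genes are abundant in fetal tissue and decline after birth.

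Coordinates are those of mm10 with the GENCODE M21 annotation. H19 (ENSMUSG00000000031, a lincRNA) lies at chr7:142575529-142578143 on the minus strand, and Igf2 (ENSMUSG00000048583) at chr7:142650766-142666816 on the same strand, with 72.6 kb between them. Dlk1 (ENSMUSG00000040856) lies at chr12:109452823-109463336, Meg3 (ENSMUSG00000021268, a lincRNA) at chr12:109541001-109571726 and Rian (ENSMUSG00000097451, a processed transcript) at chr12:109603940-109661716, all on the plus strand, with gaps of 77.7 kb and 32.2 kb. The other members stand alone: Igf2r (ENSMUSG00000023830) at chr17:12682406-12769664 on the minus strand, Peg3 (ENSMUSG00000002265) at chr7:6703892-6730431 on the minus strand, Plagl1 (ENSMUSG00000019817) at chr10:13060504-13131694 on the plus strand, Grb10 (ENSMUSG00000020176) at chr11:11930508-12038683 on the minus strand and Mest (ENSMUSG00000051855) at chr6:30723547-30748465 on the plus strand.

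Some of the members that stood furthest from the controls carry microRNAs inside their transcripts, and the mature forms are shown because the long transcript, not the microRNA, is what these counts measure. The sequences are RefSeq's on GRCm38.p6, 5′ to 3′, with the seed (bases 2 to 8) in capitals. The first pair lies in H19, the next in Igf2 and the last in Meg3.
miR-675-5p: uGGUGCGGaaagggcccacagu
miR-675-3p: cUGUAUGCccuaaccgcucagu
miR-483-5p: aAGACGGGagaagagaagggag
miR-483-3p: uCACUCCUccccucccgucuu
miR-770-5p: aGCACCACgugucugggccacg
miR-770-3p: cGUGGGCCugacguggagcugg
No seed was shared between them. Of 25 microRNA genes listed for these loci, 19 had 0 counts in all 9 libraries and the other 6 held 19 counts together, 9 of them in the row that held most. The list was not complete: Mir341 and Mir1188, which the annotation places in Rian, were outside it and held 9 and 3 counts. None of the 25 was tested, so the levels below say nothing of the mature microRNAs.

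Stretches of DNA from 2 places, at members with large or shared differences, are shown next. The first is the 250 bases before the RefSeq start of Meg3, at chr12:109540746-109540995 on the plus strand, with TGACGTCA (a cAMP response element) and TATAAA (the core of the TATA box, here on both strands and overlapping itself) in capitals.
Meg3 upstream: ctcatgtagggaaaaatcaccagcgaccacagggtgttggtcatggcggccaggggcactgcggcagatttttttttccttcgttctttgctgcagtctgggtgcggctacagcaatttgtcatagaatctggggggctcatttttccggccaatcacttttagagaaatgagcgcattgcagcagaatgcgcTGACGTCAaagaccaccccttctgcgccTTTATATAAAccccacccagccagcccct
The second is the 163 bases between the starts of Peg3 and Usp29, which are transcribed away from each other, at chr7:6730420-6730582 and on the Peg3 strand, with its 5 CpG sites in capitals.
Peg3 to Usp29: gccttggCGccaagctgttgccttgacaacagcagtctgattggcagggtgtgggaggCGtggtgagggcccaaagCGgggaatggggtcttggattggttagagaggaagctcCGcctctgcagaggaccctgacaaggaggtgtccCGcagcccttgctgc
On both strands, 11 motifs were searched in the 250 bases before 32851 RefSeq starts, 16 of them belonging to 9 of the 10 members. H19 had no window, so the bases before its start were not searched. TGACGTCA was in 1.55% of all windows and in 2 of the 16 member windows, of Meg3 and Peg3, for Peg3 beyond the stretch shown. TATAAA was in 12.4% of all windows and in 1 of the 16 member windows, of Meg3. GGGCGG was in 32.7% of all windows and in 8 of the 16 member windows, from 5 members (Grb10, Igf2, Igf2r, Mest and Plagl1). CACGTG was in 6.02% of all windows and in 2 of the 16, of Igf2r and Plagl1. TTCNNNGAA was in 7.02% of windows and in that of Rian, and GGGGCCCC in 0.889% and in that of Peg3. The YY1 core GCCATNTT (3.91% of windows), the E2F site TTTCGCGC (0.256%), the PLAGL1 site (0.0700%), the CTCF core (0.0335%) and the core of the interferon response element (2.98%) were in no member window.

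Igf2 was the member with the largest difference upward. Its level was 4.08, 3.46 and 3.37 CPM in the blank control, 3.44, 4.32 and 4.49 CPM with the empty vector (the negative control), and 7.89, 8.53 and 8.50 CPM with Firre. Every Firre library stood above every control library, and the highest control value was 4.49 CPM. The means were 3.64 ± 0.388, 4.08 ± 0.563 and 8.31 ± 0.362 CPM (SD, n = 3 each), a log2 difference of 1.02 (SE 0.15) from the negative control and 1.20 (SE 0.16) from the blank control, or 2.03-fold and 2.29-fold. This growth factor was scarce in all groups: it rested on 59 to 189 counts per library and ranked 10914 of the 15633 tested genes by mean level.

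H19 was the member with the largest difference downward. Blank control libraries read 103, 85.5 and 75.8 CPM, negative control libraries 73.8, 90.5 and 75.8 CPM, and Firre libraries 24.6, 25.3 and 27.0 CPM. The Firre values lay close together and far under the lowest control, 73.8 CPM, whereas the controls were spread more widely. Mean levels were 88.2 ± 14.0, 80.0 ± 9.11 and 25.7 ± 1.24 CPM (SD, n = 3 each). The noncoding RNA was 3.12-fold lower than in the negative control (log2 difference -1.64, SE 0.12) and 3.44-fold lower than in the blank control (-1.78, SE 0.12). Among all tested genes its difference from the negative control sat at the 2.82nd percentile, and that of Igf2 at the 95.2nd.

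Igf2r, the receptor that removes the ligand, was abundant and close to its control level. Its values were 569, 601 and 535 CPM in the blank control, 561, 598 and 579 CPM in the negative control, then 520.3, 537 and 516 CPM in the Firre libraries. All 3 Firre libraries were below all negative controls but overlapped the blank controls. The log2 differences were -0.14 (SE 0.05) and -0.12 (SE 0.05), and the gene ranked 207 of 15633 by level. The ratio of Igf2 to Igf2r in CPM was 0.0064 ± 0.0007, 0.0070 ± 0.0008 and 0.0158 ± 0.0007 in the blank, negative and Firre groups, which is 2.25-fold and 2.47-fold higher in the Firre libraries. Because of the opposite differences within the cluster, the ratio of Igf2 to H19 differed more between groups: 0.0395, 0.0405 and 0.0444 in the blank control, 0.0466, 0.0478 and 0.0592 in the negative control and 0.320, 0.337 and 0.315 in the Firre libraries. The groups were far apart, 6.33-fold over the negative and 7.81-fold over the blank control.

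**Figure D1:**
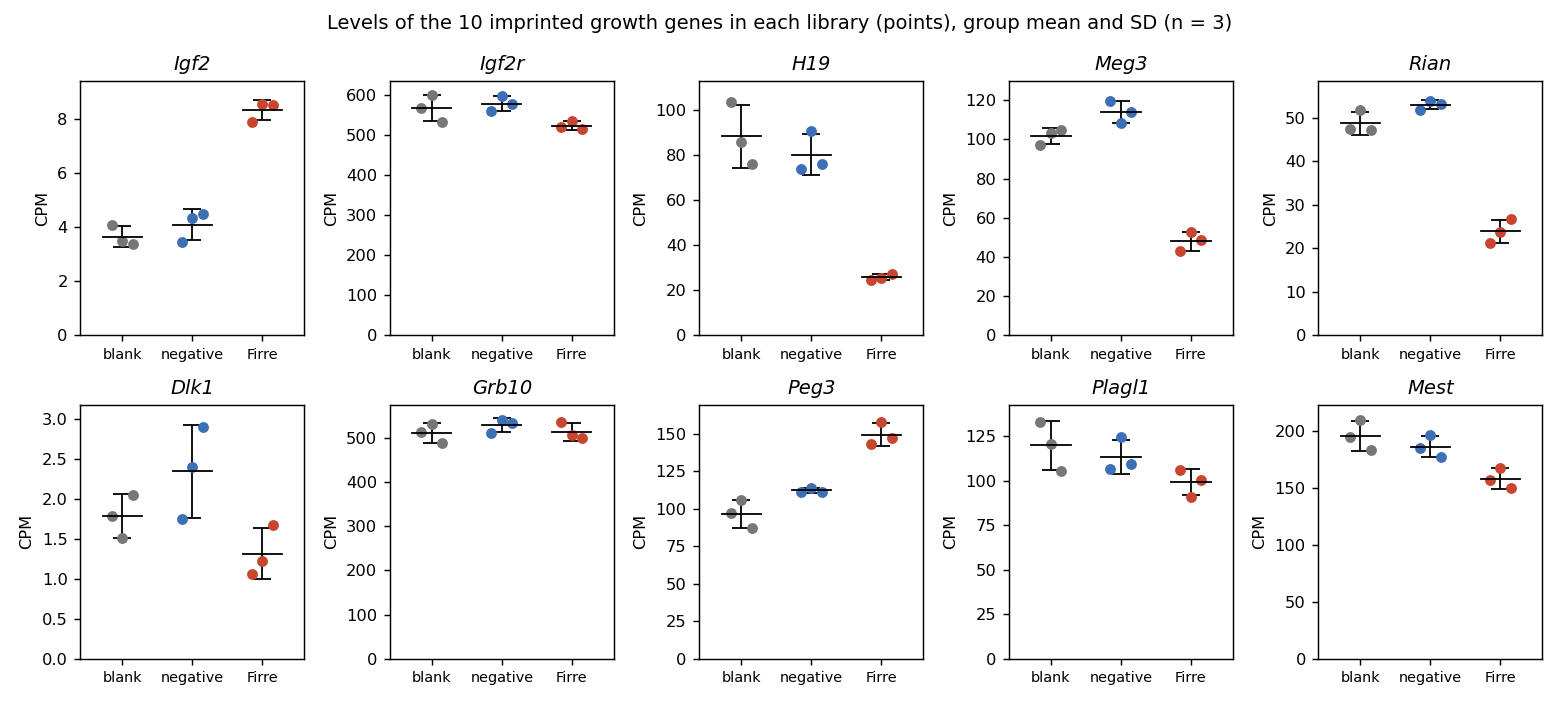
Level of each imprinted gene in every library, in CPM on a linear axis from 0; points are libraries, bars the mean and SD of 3. The Firre libraries stand above all controls for Igf2 and Peg3 and below all controls for H19, Meg3, Rian and Mest.

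Meg3 and Rian, the maternally expressed noncoding RNAs of chromosome 12, were both less than 0.5 of their control level. Meg3 read 96.9, 103 and 105 CPM in the blank control, 119.8, 108 and 114 CPM in the negative control, then 42.9, 52.6 and 48.7 CPM in the Firre libraries. Rian, which hosts small nucleolar RNAs, read 47.4, 51.8 and 47.0 CPM, then 51.8, 53.9 and 53.0 CPM, then 21.2, 23.7 and 26.6 CPM. For both, the Firre libraries were under every control without overlap. The log2 differences of Meg3 were -1.24 (SE 0.06) from the negative control and -1.08 (SE 0.06) from the blank control, and those of Rian -1.15 (SE 0.07) and -1.03 (SE 0.07). The ratio of Rian to Meg3 stayed within one range: 0.480 ± 0.0273, 0.465 ± 0.0328 and 0.497 ± 0.0473 (SD, n = 3 each), with overlapping groups.

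Dlk1, the paternally expressed protein-coding gene of the cluster and a noncanonical NOTCH ligand, was the scarcest member. Its levels were 1.79, 1.51 and 2.06 CPM in the blank control, 1.75, 2.40 and 2.91 CPM in the negative control, then 1.06, 1.22 and 1.67 CPM in the Firre libraries. The Firre values lay below all negative controls, by a small margin, and overlapped the blank controls. With 21 to 57 counts per library, the log2 differences were -0.84 (SE 0.27) and -0.43 (SE 0.28). Dlk1 thus did not stand opposite to Meg3 in the way that Igf2 stood opposite to H19. The ratio of Dlk1 to Meg3 was 0.0176 ± 0.0026, 0.0208 ± 0.0056 and 0.0274 ± 0.0060, and in it the Firre libraries overlapped the negative controls and stood above all blank controls (1.56-fold).

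Peg3, a zinc finger factor linked to growth and maternal behaviour, was the second member that was higher. It read 96.9, 106 and 86.8 CPM in the blank control, 111, 114 and 111 CPM in the negative control, then 143, 158 and 147 CPM in the Firre libraries. No Firre library overlapped a control, and the negative control also stood above the blank control. The log2 difference was 0.41 (SE 0.06) from the negative control and 0.63 (SE 0.06) from the blank control, or 1.33-fold and 1.54-fold.

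Plagl1, a zinc finger factor known as a regulator of other imprinted genes, read 133, 121 and 105 CPM in the blank control, 107, 125 and 109 CPM in the negative control, then 106, 91.1 and 101 CPM in the Firre libraries. The highest Firre library lay just under the lowest negative control and above the lowest blank control. Its log2 differences were -0.20 (SE 0.08) and -0.27 (SE 0.08). Mest, the hydrolase-like member, read 195, 209 and 183 CPM, then 185, 196 and 177 CPM, then 157, 167 and 149.5 CPM. Here all Firre libraries were below all controls, by log2 differences of -0.23 (SE 0.05) and -0.31 (SE 0.05). Grb10, the signalling adaptor, read 513, 531 and 487 CPM, then 509, 540.0 and 534 CPM, then 535, 505 and 498 CPM. Its groups overlapped in each comparison, and its log2 differences were -0.04 (SE 0.05) and 0.01 (SE 0.05).

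Counted over the list, 8 of the 10 members had an adjusted p under 0.05 against the negative control, 2 higher and 6 lower, beside 56.0% of all tested genes (27.5% higher, 28.4% lower), and 8 of 10 against the blank control, again 2 and 6, beside 56.3% (27.3% higher, 28.9% lower). In 9 of 10 the Firre and negative control libraries did not overlap, beside 62.4% of all genes, and in 6 of 10 the Firre and blank control libraries did not, beside 60.5%. The rule chose these genes with the same contrasts known, so nothing is read from those counts. The median log2 difference of the 10 was -0.22 and -0.29 in the 2 comparisons, against 0.00 and -0.01 over all tested genes. Both comparisons use the same Firre libraries.

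**Figure D2:**
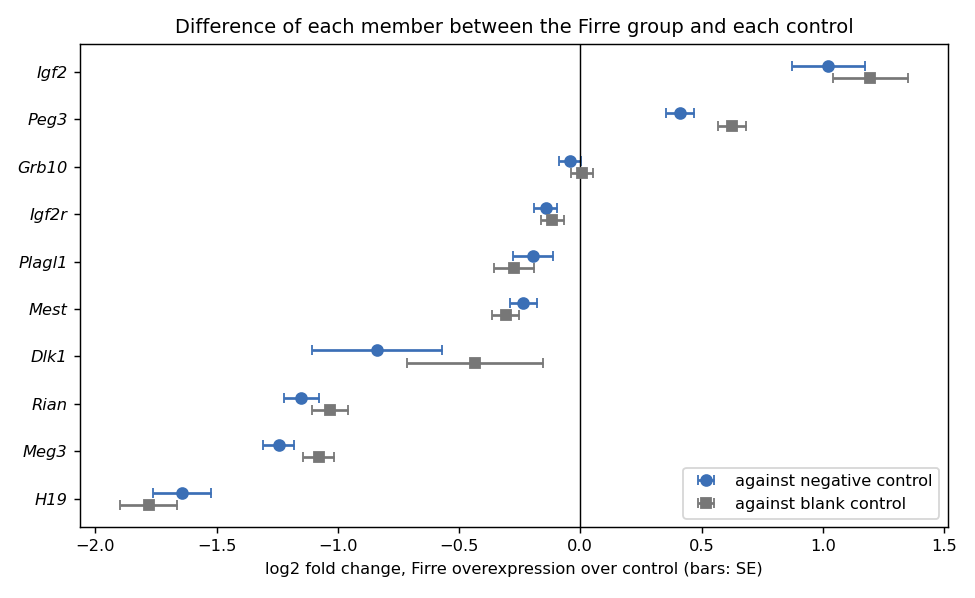
Log2 difference of each member between the Firre libraries and each control group, with SE bars; a vertical line marks no difference. Igf2 (1.02 and 1.20) and H19 (-1.64 and -1.78) are at the ends, and Grb10 (-0.04 and 0.01) lies at the line.

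By the parent of origin given in textbooks, the list holds 5 paternally expressed genes (Igf2, Dlk1, Peg3, Plagl1, Mest) and 5 maternally expressed genes (H19, Igf2r, Meg3, Rian, Grb10). Both genes that were higher were paternal, while the other 3 paternal genes had log2 differences of -0.84, -0.20 and -0.23 from the negative control. The maternal genes ran from -1.64 to -0.04, with a median of -1.15, and the paternal genes from -0.84 to 1.02, with a median of -0.20. The sequencing counts do not separate the parental copies, so these labels describe the genes and not the allele that was read.

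Per length, as RPKM (CPM divided by the merged exon length in kilobases), the order of the members changed between groups. In the negative control it ran from Igf2r (62.2 ± 2.003 RPKM), Grb10 (58.1 ± 1.79), Mest (47.2 ± 2.40) and H19 (32.5 ± 3.70) through Plagl1 (14.5 ± 1.23), Peg3 (8.42 ± 0.113), Meg3 (6.30 ± 0.319) and Rian (2.90 ± 0.0579) to Igf2 (0.713 ± 0.0984) and Dlk1 (0.415 ± 0.103). No neighbours in that order overlapped, and the blank control kept the order, with Igf2r and Grb10 overlapping. In the Firre libraries H19 came to 10.4 ± 0.503 RPKM and stood in the sixth place, behind Plagl1 (12.7 ± 0.950) and Peg3 (11.2 ± 0.575), of which Peg3 overlapped it. Igf2 at 1.45 ± 0.0633 RPKM passed Rian at 1.31 ± 0.147, although their libraries overlapped. Igf2r and Grb10 were level at 56.4 RPKM each.

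Among the pairs of members, profiles over the 9 libraries were compared after centring each gene's log2 CPM on its own mean, as a description. The cluster partners Meg3 and Rian differed by a root mean square of 0.10 (Pearson r 0.986), while H19 and Igf2 were the most unlike pair, at 1.33 (r -0.933). Igf2r lay nearest to Grb10 (0.06) and then to Mest (0.09), both with small differences, and Igf2 lay nearest to Peg3 (0.30). All such values share the same libraries. Those of members with large differences mostly follow the step between the Firre and the control libraries. Grb10 has no such step (log2 differences -0.04 and 0.01), so its likeness to Igf2r does not come from one.

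Of 12642 genes searched outside the list, the 5 whose centred profile was most like that of H19 were Cd55, a complement regulator (root mean square difference 0.07), Il1r1, an interleukin receptor (0.07), Edn1, the endothelin precursor (0.10), the receptor Gpr182 (0.10) and the ceramidase Acer2 (0.10). Cd55 went from 98.8 ± 6.70 to 31.5 ± 0.597 CPM and Edn1 from 91.3 ± 1.85 to 27.9 ± 1.91 CPM between the negative control and the Firre libraries (SD, n = 3). The 5 most like Igf2 were Miga2, a mitochondrial fusion factor (0.09), Syde2 (0.11), Znfx1 (0.12), the protease Adamts15 (0.12) and Tmod1, which caps thin filaments (0.12). Tmod1 went from 135 ± 1.71 to 286 ± 7.68 CPM. Ranked by Pearson correlation instead, 1 of the 5 stayed in the first 5 for each gene, Cd55 for H19 and Miga2 for Igf2.

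**Figure D3:**
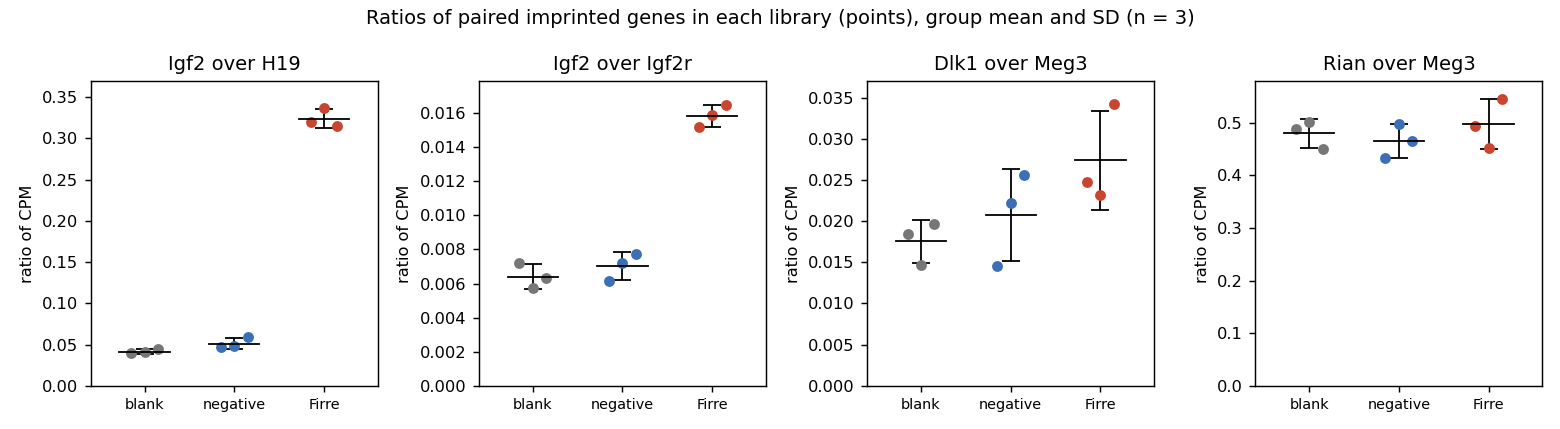
Ratios of CPM between paired members in every library, linear axes from 0, with group mean and SD of 3. Igf2 over H19 and Igf2 over Igf2r are higher in all Firre libraries, while Rian over Meg3 overlaps between groups.

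The genes that surround the members were not chosen by their values and were tested. Within 250 kb of a member span, 36 of 212 other genes were tested; 16 rose and 9 fell against the negative control at an adjusted p under 0.05 (edgeR), which is 69.4% beside 56.0% of all genes. Against the blank control 15 rose and 7 fell, which is 61.1% beside 56.3% of all genes. Around H19 and Igf2, 7 of 8 rose and 1 fell against the negative control, and 6 rose, 0 fell and 2 did not pass against the blank control. Ctsd, a lysosomal protease, rose from 602 ± 17.8 to 743 ± 38.6 CPM (log2 0.31, adjusted p 3.09e-05), Lsp1 by 0.33 (adjusted p 3.15e-05) and Mrpl23, a mitochondrial ribosomal protein gene, by 0.34 (adjusted p 0.000224), whereas Ifitm10 fell by 0.47 on the log2 scale (adjusted p 0.0112). Ifitm10 (-0.34, adjusted p 0.0677) and Prr33 (0.70, adjusted p 0.124) were those that did not pass against the blank control. H19 was the only tested gene with a log2 difference below -1 in that window. Igf2os, the transcript on the other strand of Igf2, rose from 0.941 ± 0.109 to 1.84 ± 0.230 CPM (log2 0.96, adjusted p 0.0102). It held 226 counts over the 9 libraries and is uncertain, since its span partly overlaps Igf2 and the use of strand in counting is not stated.

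**Figure D4:**
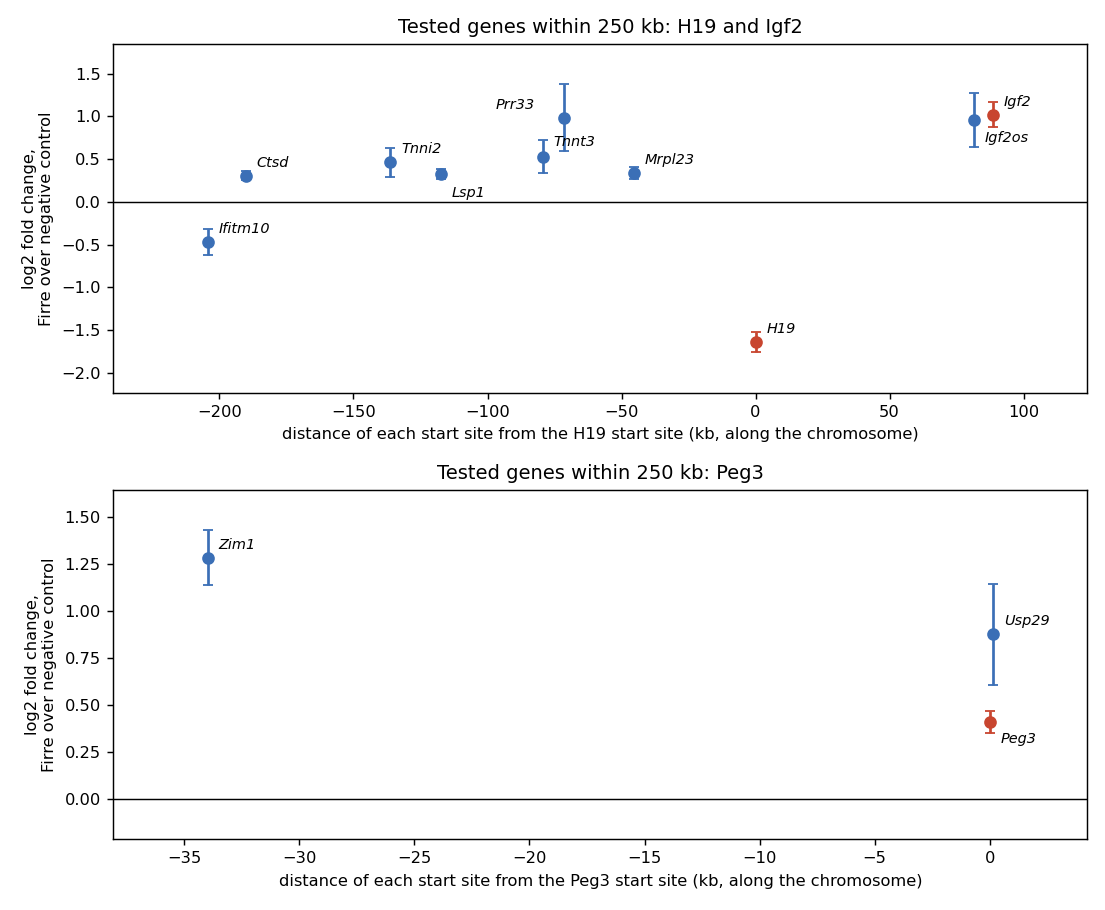
Log2 difference from the negative control, with SE, for tested genes around H19 and Igf2 (upper) and around Peg3 (lower), by distance of the start site in kb; members in red, neighbours in blue. H19 at -1.64 lies between neighbours that are mostly higher, and Zim1 at 1.29 lies above Peg3 at 0.41.

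Near Peg3 both tested neighbours rose. Zim1, a maternally expressed zinc finger gene with 7.44 kb between it and Peg3, read 3.13, 4.58 and 3.31 CPM in the blank control, 4.42, 4.42 and 5.20 CPM in the negative control, then 10.2, 11.7 and 12.3 CPM in the Firre libraries. It was higher in all 3 Firre libraries than in any control (log2 1.29, SE 0.14, adjusted p 6.84e-09). Usp29, the paternally expressed gene across the short stretch printed above, read 1.22 to 1.39 CPM in the negative control, then 3.19, 1.76 and 2.40 CPM in the Firre libraries (log2 0.88, adjusted p 0.00652). Without the first Firre library, Usp29 no longer passed (log2 0.64, adjusted p 0.0753). Against the blank control it rose by 0.70 on the log2 scale (adjusted p 0.0283), a call lost under DESeq2 (0.0876), without Firre replicate 1 (0.197) or 3 (0.0501), and without blank control replicate 2 (0.102) or 3 (0.0877).

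In the chromosome 12 cluster, 2 of 103 other genes were tested. Mirg, a host of microRNAs beyond Rian, was 2.57 ± 0.913 CPM in the negative control, then 1.63 ± 0.259 CPM in the Firre libraries (log2 -0.66, adjusted p 0.0275). The call was lost without the negative control library at 3.62 CPM, replicate 2 (log2 -0.32, adjusted p 0.335). DESeq2 gave an adjusted p of 0.0844, and leaving out Firre replicate 2 or 3 gave 0.0570 or 0.111. Mirg did not pass against the blank control (log2 -0.40, adjusted p 0.199 by edgeR). Gm3379 was at -0.03 (adjusted p 0.967).

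At the remaining loci the neighbours went both ways. Around Igf2r, 2 of 11 rose, Sod2 (log2 0.45, adjusted p 6.61e-10), the mitochondrial superoxide dismutase, and Mrpl18 (0.39, 2.38e-06), and 4 fell, among them Acat2 (-0.64, 0.000569). Airn, the antisense noncoding RNA that silences the paternal Igf2r copy, fell from 17.9 ± 1.50 to 14.4 ± 1.45 CPM (log2 -0.31, adjusted p 0.00827) and overlaps Igf2r on the other strand, so reads of the pair may not be separate. Around Plagl1, 3 of 6 rose and 1 fell, the 3 with the smallest p being Stx11 (0.81, 1.05e-09), Phactr2 (0.30, 5.03e-06) and Utrn (0.25, 0.000102). Next to Grb10, Cobl, an actin nucleator, rose (0.76, 2.61e-09), and Fignl1 (-0.86, 5.08e-06) fell, as did Ikzf1, a lymphoid transcription factor (-2.47, 0.000897), which is uncertain because it held 2 to 3 counts in each Firre library and passed the low-count filter through the controls. Copg2, which overlaps Mest on the other strand, rose from 37.7 ± 3.75 to 47.6 ± 3.03 CPM (0.33, 0.000268), opposite in sign to Mest. Cep41 (-0.26, 0.156) and Tmem209 (0.02, 0.842) beside Mest did not pass, and Cep41 passed without the first Firre library (-0.42, 0.0398).

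Other imprinted genes were taken as a list of 61, of which 45 were tested. It shares genes with the neighbours above, among them Igf2os, Airn, Mirg, Zim1, Usp29, Cobl and Copg2, so the 2 sets are not separate. This list and the gene lists below were drawn up with earlier results of these libraries known. Their counts and adjusted p-values are therefore a description and not independent support. Against the negative control 15 rose, 15 fell and 15 did not pass, which is 66.7% called beside 56.0% of all genes, with a median log2 difference of 0.01. Paternally expressed genes had 2 of 21 higher and 9 lower (median -0.10): Ndn, a growth suppressor of the Prader-Willi region, went from 61.9 ± 1.87 to 41.7 ± 1.14 CPM (-0.57, adjusted p 2.08e-09), Impact, a translational regulator, from 68.7 ± 4.73 to 44.0 ± 1.46 CPM (-0.64, 4.16e-09) and Peg10, of retroelement origin, from 20.6 ± 0.396 to 12.8 ± 0.660 CPM (-0.69, 1.16e-07). The 2 higher paternal genes were Igf2os and Usp29, the first uncertain through its overlap with Igf2 and the second lost without 1 Firre library, as given above. Maternally expressed genes had 13 of 24 higher and 6 lower (median 0.18), with Cobl and Zim1 among the former and Gatm, a creatine synthesis enzyme, among the latter, from 6.99 ± 0.505 to 1.17 ± 0.208 CPM (-2.58, 3.74e-13). Among the 10 members both higher genes were paternal; the difference between the lists was not tested. Against the blank control, 2 rose and 9 fell of the 21 paternal genes and 11 rose and 6 fell of the 24 maternal genes. Of all tested genes, 27.5% were higher and 28.4% lower against the negative control. The shares against the blank control were 27.3% and 28.9%.

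The imprinted growth network is a set described as moving together with Plagl1 and H19. Its 7 genes beyond the members are all among the other imprinted genes already counted above. Of these 7, 6 fell and 0 rose against the negative control (median -0.57), beside 28.4% lower and 27.5% higher of all genes. By unadjusted p under 0.05 edgeR gave 6, and DESeq2 called 5. The exception was Gnas (975 ± 36.5 and 983 ± 32.2 CPM, adjusted p 0.855 by edgeR). The 3 with the smallest p were Gatm, Ndn and Dcn, the last the matrix proteoglycan decorin, from 721 ± 32.0 to 343 ± 17.9 CPM (-1.07, 6.13e-17). Against the blank control 5 fell. Dcn is also one of the 12 fibroblast markers, all of which fell.

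**Figure D5:**
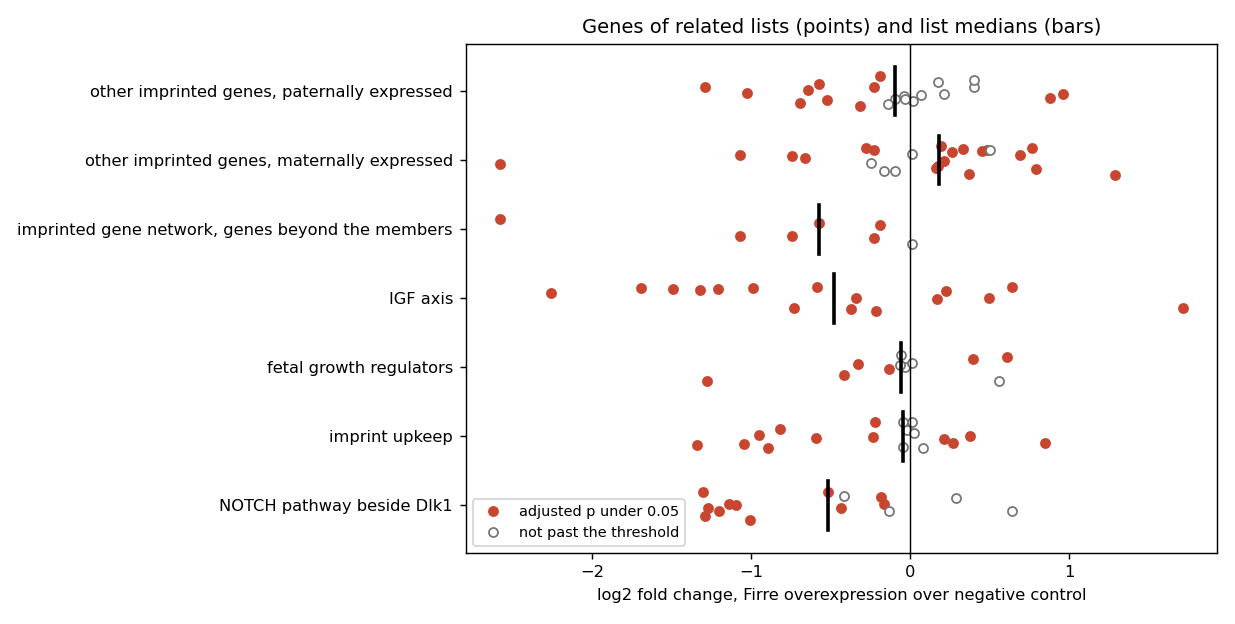
Log2 difference from the negative control for each tested gene of 7 related lists; filled points passed an adjusted p of 0.05 and bars are list medians. The NOTCH and network lists have calls only on the lower side, and the maternally expressed list has a median of 0.18.

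In the IGF axis around Igf2, 16 of 18 listed genes were tested. This list too was drawn up with earlier results known. Against the negative control 5 rose and 11 fell (median -0.48), beside 27.5% higher and 28.4% lower of all genes. The blank control comparison gave 5 higher and 10 lower, beside 27.3% and 28.9% of all genes. Igfbp5, a binding protein that holds IGFs in the matrix, rose from 73.6 ± 1.66 to 242 ± 10.8 CPM (1.72, adjusted p 1.46e-20). Igfbp3, the main carrier of IGFs in blood, fell from 109 ± 11.7 to 22.8 ± 1.57 CPM (-2.26, 3.76e-20), and Igfbp4 from 77.0 ± 2.40 to 30.8 ± 2.41 CPM (-1.32, 8.70e-17). Igfbp2 (-1.21, 1.82e-15), Igfbp6 (-1.49, 6.71e-06) and Igfbp7 (-0.73, 1.77e-09) fell too, so Igfbp5 stood alone among the tested binding proteins. Igf1, the other ligand of the family, fell from 47.3 ± 7.12 to 14.6 ± 1.03 CPM (-1.69, 7.05e-12), opposite in sign to Igf2. Of the receptors, Igf1r, which carries the growth signal of both ligands, fell by 0.34 on the log2 scale (1.11e-06), and the insulin receptor Insr rose by 0.49 (4.57e-09).

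Among 11 tested fetal growth regulators, 2 rose and 4 fell (54.5%, beside 56.0% of all genes). Mycn, a driver of fetal proliferation, fell from 11.7 ± 0.960 to 4.79 ± 0.513 CPM (-1.28, adjusted p 5.94e-10). The Igf2 mRNA-binding proteins diverged: Igf2bp1 rose by 0.40 on the log2 scale (1.99e-05), Igf2bp2 fell by 0.33 (1.27e-05) and Igf2bp3 was at -0.06 (0.492). Of 18 genes that place, copy or erase imprints, 4 rose and 8 fell (median -0.05), which is 66.7% beside 56.0% of all genes. Those with the smallest p fell: Uhrf1 (-0.89, 2.74e-12) and Dnmt1 (-0.59, 8.00e-11), which copy methylation at replication, and Zfp57 (-0.82, 1.21e-10), which guards imprints in the embryo. Of 15 NOTCH pathway genes beside Dlk1, 0 rose and 11 fell (median -0.52), which is 73.3% called beside 56.0% of all genes. The smallest p were those of the ligand Jag1 (-1.20, 5.76e-16) and the receptors Notch1 (-1.09, 4.44e-15) and Notch3 (-1.29, 1.04e-14). Notch3 is also a pericyte marker. By unadjusted p, 11 of the 15 were under 0.05, and DESeq2 called 10.

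The 2 control groups were compared to see how far these genes differed without added Firre. No member passed an adjusted p of 0.05 by edgeR, 2 were under 0.05 unadjusted, and DESeq2 called 1; over all genes 9 passed, or 0.0576% (0.0064% higher, 0.0512% lower). Meg3, Rian and Peg3 had all negative control libraries above all blank control libraries, by log2 differences of 0.16 (SE 0.06), 0.12 (SE 0.07) and 0.22 (SE 0.06), beside 13.1% of all genes whose control groups did not overlap. The other 7 overlapped, with log2 differences from -0.14 for H19 to 0.40 for Dlk1. Over the 6 control libraries the coefficient of variation of a member's CPM ran from 3.82% for Grb10 to 24.7% for Dlk1, and was 13.6% for H19 and 12.9% for Igf2. None of the 36 neighbours or 45 other imprinted genes, sets that share some genes, passed by edgeR in this comparison. By unadjusted p, 2 of the 36 and 5 of the 45 were under 0.05, and DESeq2 called 0 of either.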

How the data were processed

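Total RNA of isolated cardiomyocytes was rRNA-depleted and made into directional, paired-end libraries, per the labels' protocols; the labels also name the molecule as polyA RNA, which was not settled. The authors deposited 1 table of raw counts per gene, and FastQC, Trimmomatic, STAR, featureCounts and mm10 are named in the submitters' processing notes, without versions. No source used here says whether counting used strand. Closing rows that name no gene (5) were left out (16.3% to 17.4% of a library), and 55227 of 55487 identifiers matched GENCODE M21. No column of per-sample values was left unused.

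All 9 libraries were fitted together with edgeR 4.0.16 in R 4.3.3 (TMM, filterByExpr with a minimum count of 10 and total of 15, robust quasi-likelihood F test, 6 residual degrees of freedom, Benjamini-Hochberg over 15633 genes, threshold 0.05), after a check on simulated data. CPM uses TMM factors, RPKM divides CPM by merged exon length, and SE is the log2 difference over the root of F. Replicates of a group differed by more than sampling noise (chi-square per degree of freedom 3.27 to 7.39). The members, gene lists and tests were chosen with earlier results of these data known. Named were all members and, per list or locus, the 3 genes with the smallest p against the negative control, plus the 5 profiles most like H19 and Igf2; Igf2os, Airn, Zim1, Ifitm10, Prr33, Mir341, Mir1188, Gnas, Igf2bp3, Igf1, Igf1r, Insr and the other Igfbp genes were named for position or as exceptions, some after their values were seen. Alternatives were other size factors, DESeq2 1.42.0, no filter, pairwise fits, a replicate block, leaving out each library and a 100 kb window. Low genes such as Dlk1 (21 to 57 counts) carry wide errors.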

Additional observations from a re-analysis of the deposited data

How the results depend on the processing

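The log2 difference of each member from the negative control kept its sign under all 15 alternatives: H19 ran from -1.70 to -1.55, Igf2 from 0.91 to 1.09, Meg3 from -1.31 to -1.17, Rian from -1.23 to -1.07, Peg3 from 0.36 to 0.44 and Dlk1 from -1.03 to -0.66. From the blank control, Grb10 ran from -0.04 to 0.04 and the other 9 kept their sign. Members near the threshold changed sides: Plagl1 was past it in 9 of 15 alternatives and Dlk1 in 14 of 15 against the negative control, and Igf2r in 9 of 15 and Plagl1 in 13 of 15 against the blank control. With a 100 kb window in place of 250 kb, fewer genes were in reach. Of 18 tested neighbours, 13 passed against the negative control (10 higher, 3 lower), which is 72.2% beside 56.0% of all genes. Another 100 kb count, against the blank control, was 11 of 18 (9 and 2), or 61.1% beside 56.3%. The median log2 difference from the negative control was 0.33 at 100 kb and 0.05 at 250 kb. Between the controls, the 9 genes past the threshold became 43 under DESeq2, 98 with no low-count filter and 0 to 55 when 1 library was left out (0 without the first blank control library, 55 without the second); the cause was not tested. The members called there went from 0 to 1 (Peg3) under DESeq2, to 1 with no filter, and to 0 to 1 with 1 library left out. With library totals alone, 3685 genes were higher and 5050 lower against the negative control, and the median of all genes shifted to -0.05.

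No shared effect of the replicate number was seen: deviations of same-numbered libraries correlated at -0.10 to 0.05. Whether same-numbered libraries came from the same preparation is not stated. With the replicate number as a block, 8592, 8586 and 7 of the 15633 tested genes passed. These are Firre against negative, Firre against blank and negative against blank, in that order. Of the 10 members, 9, 8 and 0 were called beside those shares, and nothing is read from the member counts. Depth limits the values of Dlk1, Igf2os, Usp29, Mirg and Ikzf1.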
